A study of Mus musculus with 5 samples.

Results

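Glycolysis was described through 10 genes taken in pathway order, from glucose uptake to the branch between lactate and the mitochondrion. They were Slc2a1, Hk2, Gpi1, Pfkl, Aldoa, Tpi1, Pgk1, Eno1, Ldha and Pdk1. All 10 were found by symbol, with 1 transcript each, among the 14697 transcripts of the deposited expression table. All 10 passed the filter on low values described below. The RNA came from the atrioventricular canal (AVC) of C57BL/6 mice at embryonic day 12.5, sequenced in bulk. This is the part of the heart tube whose cushions become the valves, and the dissected tissue held mesenchyme, endothelium and myocardium. The WT group carried the genotype Sox9fl/fl:+/+ and the Sox9 cKO group Sox9fl/fl:Tie2-Cre/+, so both groups shared the floxed Sox9 alleles and only the cKO group carried Cre. Tie2 drives Cre in endothelial cells, and cushion mesenchyme that descends from them, and blood cells, recombine as well, while myocardium does not. AVCs of several embryos were pooled, and duplicate libraries per genotype were merged by the authors into 1 value per gene and genotype. No spread between replicates can therefore be given, no test was possible, and every difference below is a size alone.

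Glycolysis splits glucose into pyruvate in the cytosol and yields ATP without oxygen. Pyruvate is then reduced to lactate by lactate dehydrogenase or enters the mitochondrion through the pyruvate dehydrogenase complex, which pyruvate dehydrogenase kinases switch off. Most steps have several isozymes with their own tissue pattern. The forms encoded by Slc2a1, Hk2, Ldha and Pdk1 are among the known targets of the hypoxia-inducible factors (HIF), a list not meant to be complete. The embryonic heart relies on glycolysis more than the adult heart does.

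All 10 genes stood higher in cKO, by small amounts in most of them. In the deposited nFPKM, a normalized form of FPKM (fragments per kilobase of a transcript, scaled by the number mapped), the ratio of cKO to WT ran from 1.08 for Pfkl to 1.91 for Hk2. The glucose transporter Slc2a1 and the hexokinase Hk2, which open the pathway, had the largest ratios. Of the 13793 transcripts that reached 1 nFPKM in WT or cKO, 32.0% had a higher deposited value in cKO. With a pseudocount of 1, their median log2 ratio was -0.11. Ratios are given from here on relative to that median ("relative log2 ratio"), so that 0 is the middle transcript. The median relative log2 ratio of the 10 genes was 0.43, against 0 over all transcripts by construction. A relative log2 ratio of at least 1, which is 2-fold, was reached by 1 of the 10 genes, against 0.834% of all transcripts. A 1.5-fold higher relative value was reached by 2 of the 10, against 3.44% of all transcripts. None of the 10 was 1.5-fold lower, against 2.82% of all transcripts.

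Sox9 and markers of the tissue were read in the same values. Sox9 stood at 36.7 nFPKM in WT and 14.7 nFPKM in cKO, a relative log2 ratio of -1.16. The markers of cushion mesenchyme ran from -2.90 to -0.61, so this bulk value of Sox9 does not by itself test the deletion. Markers of all cell types named for the dissection were present, none of them at 0. In the summed nFPKM of each marker list, 7 of 8 erythroid genes in the table gave 35824 in WT and 82405 in cKO, with all 7 above the all-transcript median. The 5 epicardial markers gave 198 and 280 nFPKM, with 4 above that median, and the 6 endothelial markers 656 and 780 nFPKM, with all 6 above it. The 7 markers of AVC myocardium gave 21121 and 22922 nFPKM, but only Actc1 among them had a higher deposited value in cKO. Their median relative log2 ratio was -0.49, with 5 of 7 below the all-transcript median. The 6 markers of cushion mesenchyme gave 1285 nFPKM in WT and 620 in cKO, with all 6 at least 1.5-fold lower, and the 5 macrophage markers gave 112 and 92.9 nFPKM, with 3 below the all-transcript median. For skeletal muscle and liver, tissues outside the dissection, 4 of 5 genes were in the table and summed to 323 and 430 nFPKM, mostly Acta1, which the embryonic heart also expresses. Red cells express Slc2a1, Bpgm and other glycolysis genes, and cardiomyocytes and mesenchyme do so at levels of their own. The part of these cell types in the differences of the 10 genes was not tested. In tissue values of this kind, more cells of a type and more RNA per cell cannot be told apart, nor can an effect of the deletion and a difference in handling of the pools.

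Glucose enters most embryonic cells through the facilitative transporter encoded by Slc2a1. Slc2a1 (NM_011400) stood at 351 nFPKM in WT and 546 nFPKM in cKO, a relative log2 ratio of 0.74. Hk2 (NM_013820) encodes the hexokinase that is prominent in insulin-sensitive and hypoxic tissue and that traps glucose by phosphorylating it. It stood at 56.0 nFPKM in WT, the lowest level of the 10 genes, and at 107 nFPKM in cKO, a relative log2 ratio of 1.02. Hk2 alone passed the 2-fold rule, and it lay so close to it that its ratio without centring, 1.91, did not.

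The enzymes between sugar phosphate and triose phosphate differed less. Gpi1 (NM_008155), which interconverts glucose phosphate and fructose phosphate, stood at 232 nFPKM in WT and 297 nFPKM in cKO (relative log2 ratio 0.46). Pfkl (NM_008826) encodes the liver-type subunit of phosphofructokinase, the committed step of the pathway. Its 180 nFPKM in WT and 193 nFPKM in cKO gave the smallest relative log2 ratio of the 10, 0.21. Aldoa (NM_001177307), the aldolase that cleaves the sugar into trioses, was the most abundant of the 10, at 1882 nFPKM in WT and 2437 nFPKM in cKO (0.48). Tpi1 (NM_009415), which interconverts the trioses, stood at 942 and 1086 nFPKM in WT and cKO (0.31).

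Of the genes that follow, Pgk1 and Ldha had larger relative log2 ratios than Eno1 and Pdk1. Pgk1 (NM_008828), phosphoglycerate kinase of the ATP-yielding part of the pathway, stood at 63.6 nFPKM in WT and 81.6 nFPKM in cKO (0.46). Eno1 (NM_023119), the widely expressed enolase, stood at 196 nFPKM in WT and 225 nFPKM in cKO (0.31). Ldha (NM_001136069) encodes the lactate dehydrogenase subunit that favours reduction of pyruvate to lactate. It stood at 1171 nFPKM in WT and 1436 nFPKM in cKO (0.40). Pdk1 (NM_172665), whose kinase inhibits pyruvate dehydrogenase, stood at 135 nFPKM in WT and 150 nFPKM in cKO (0.26).

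**Figure D1:**
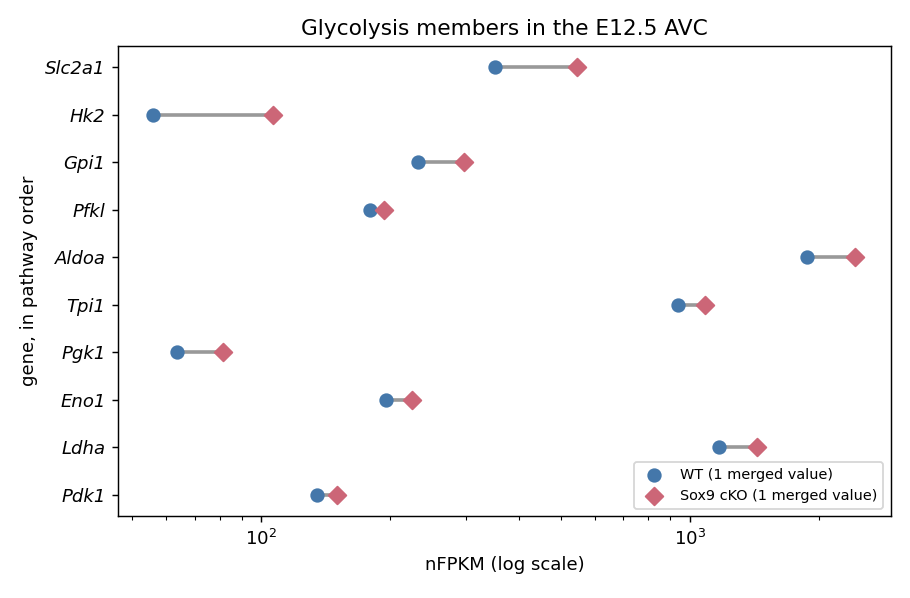
Level of each of the 10 genes in WT (circles) and Sox9 cKO (diamonds) AVC, in nFPKM on a log scale, in pathway order, with 1 merged value per genotype and no error bar. Every diamond lies to the right of its circle, with the widest gap at Hk2 (56.0 and 107 nFPKM) and the narrowest at Pfkl (180 and 193 nFPKM).

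The levels of the 10 genes spanned 33.6-fold in WT, while their relative changes spanned 1.75-fold. Aldoa, Ldha and Tpi1 together made up 76.7% of the summed nFPKM of the 10 genes in WT and 75.6% in cKO. The sum itself was 5207 nFPKM in WT and 6560 nFPKM in cKO, a ratio of 1.26 without centring, and those 3 genes gave 71.3% of the difference. Slc2a1 gave 14.4% of it. As a share of the summed nFPKM of all transcripts, the 10 genes took 0.542% in WT and 0.683% in cKO. With the globin genes left out of the total these shares were 0.566% and 0.756%.

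Low transcripts vary more in their ratio than abundant ones, so the 10 genes were also set beside transcripts of like level. For the 5449 transcripts at 30 nFPKM or more in WT and in cKO, the central 90% of relative log2 ratios lay between -0.27 and 0.38. Of the 10 genes, 6 lay above that range, namely Hk2, Slc2a1, Aldoa, Gpi1, Pgk1 and Ldha, and 4 lay inside it. Hk2 was above 99.5% of these transcripts and Slc2a1 above 99.2%, whereas Pfkl was above 84.7%. For the 1469 transcripts at 100 nFPKM or more in each, the central 90% lay between -0.25 and 0.43. There, 3 of the 8 members at that level, Slc2a1, Aldoa and Gpi1, lay above the range, and Ldha lay inside it. Hk2 and Pgk1 did not reach that level in WT. The median relative log2 ratio was 0.06 at that level and 0.02 at 30 nFPKM or more. In the authors' deposited table the log2 fold change was 1.03 for Hk2, 0.75 for Slc2a1 and 0.22 for Pfkl. The authors' values exceeded the log2 ratio of the deposited nFPKM by 0.11 in the median over those 1469 transcripts, which is the size of the centring used here.

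Some of these genes have close copies in the mouse genome, and reads can be shared with them. The RefSeq gene table names 4 genes or pseudogenes after Aldoa, 3 after Pgk1, 3 after Ldha and 1 after Eno1. The copies Aldoart1 (21.5 nFPKM in WT and 28.8 nFPKM in cKO) and Aldoart2 (7.53 and 6.66 nFPKM) have values of their own in the table. Levels of Aldoa, Pgk1, Ldha and Eno1 are therefore uncertain. Copies under other names were not searched for, so the other genes may have copies too. The median relative log2 ratio of the other 6 genes was 0.39.

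Promoter windows were examined because the genes stood on the same side together and several are known HIF targets. HIF binds DNA at a short core that reads ACGTG or GCGTG. RefSeq promoters of build GRCm38.p6, each 300 bases long from 250 before to 50 after a transcript start, were found for all 10 genes, in 16 windows. Shown are the windows of Hk2 and Slc2a1, which had the largest relative ratios, of Pfkl and Pdk1, which had the smallest, and of Ldha, whose upstream window held the most matches. Capitals mark ACGTG or GCGTG on either strand, so that the reverse complements CACGT and CACGC are capitalised too. For Pdk1 and Ldha, 1 of several windows is shown.
Hk2, chr6:82774405-82774704, minus strand: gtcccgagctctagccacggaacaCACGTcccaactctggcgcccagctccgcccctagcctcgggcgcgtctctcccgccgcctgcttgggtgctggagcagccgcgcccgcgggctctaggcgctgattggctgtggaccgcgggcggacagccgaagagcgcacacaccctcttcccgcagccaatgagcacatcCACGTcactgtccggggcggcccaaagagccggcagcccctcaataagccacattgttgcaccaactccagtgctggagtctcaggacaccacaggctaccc
Slc2a1, chr4:119108495-119108794, plus strand: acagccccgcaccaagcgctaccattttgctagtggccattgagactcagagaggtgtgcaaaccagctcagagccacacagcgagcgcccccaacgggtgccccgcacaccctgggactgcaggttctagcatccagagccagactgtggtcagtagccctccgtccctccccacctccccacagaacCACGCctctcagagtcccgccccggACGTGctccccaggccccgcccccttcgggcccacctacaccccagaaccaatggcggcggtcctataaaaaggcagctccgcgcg
Ldha, chr7:46845554-46845853, plus strand: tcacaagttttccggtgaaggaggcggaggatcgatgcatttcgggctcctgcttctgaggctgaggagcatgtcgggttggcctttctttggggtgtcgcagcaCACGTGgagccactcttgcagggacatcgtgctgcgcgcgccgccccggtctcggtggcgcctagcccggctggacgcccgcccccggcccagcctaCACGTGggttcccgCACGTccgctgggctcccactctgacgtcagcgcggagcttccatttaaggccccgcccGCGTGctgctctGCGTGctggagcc
Pfkl, chr10:78009758-78010057, minus strand: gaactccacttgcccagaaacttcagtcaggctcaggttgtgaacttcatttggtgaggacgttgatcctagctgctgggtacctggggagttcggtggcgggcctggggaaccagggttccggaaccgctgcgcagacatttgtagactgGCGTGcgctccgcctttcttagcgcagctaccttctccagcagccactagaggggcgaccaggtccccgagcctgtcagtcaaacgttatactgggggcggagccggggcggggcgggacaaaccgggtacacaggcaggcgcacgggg
Pdk1, chr2:71872974-71873273, plus strand: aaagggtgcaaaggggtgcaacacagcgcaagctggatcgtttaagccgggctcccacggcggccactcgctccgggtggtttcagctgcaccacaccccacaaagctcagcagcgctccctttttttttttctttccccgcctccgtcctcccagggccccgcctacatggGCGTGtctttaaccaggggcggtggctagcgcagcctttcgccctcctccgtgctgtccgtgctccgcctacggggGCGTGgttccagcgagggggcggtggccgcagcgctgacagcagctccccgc
The Hk2 window held ACGTG in 2 places, Slc2a1 held ACGTG in 1 and GCGTG in 1, and Pfkl and Pdk1 held only GCGTG. The Ldha window held ACGTG in 3 places, 2 of which are the palindrome CACGTG that matches on both strands, and GCGTG in 2 more. The Pdk1 window that is not shown held neither core. The 5 windows shown were picked by ratio or by matches, so a link between letters and ratio was not tested. Of the 10 genes, 8 had at least 1 match to either core in any window. Gpi1 (relative log2 ratio 0.46) and Tpi1 (0.31) had none. Among 9846 genes with a window whose transcripts passed the filter, 67.0% had a match to either core, so the share in the 10 genes was near that of expressed genes at large. For ACGTG alone, 5 of the 10 genes had a match, against 29.0% of those genes. A gene with more windows has more chances of a match. Counted by window, ACGTG was in 37.5% of the 16 windows of the 10 genes, against 24.9% of 12623 windows of genes that passed the filter. Across all 27025 genes with a window, 46.7% had a match to either core and 21.8% to ACGTG. Windows of the same length thus often hold these letters, and a match is not a bound site. The transcript starts used in the AVC were not measured, and SOX9 peaks were not placed beside these genes here.

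The other genes of the pathway showed a wider spread, with relative log2 ratios from -0.17 for Hk3 to 1.39 for Slc2a3. Of 30 further genes listed for glycolysis, its regulation and lactate export, 28 were in the table and passed the filter. Their median relative log2 ratio was 0.32, 22 were above the all-transcript median, and 6 reached 1.5-fold in the higher direction, 2 of them 2-fold. None was 1.5-fold lower. Without centring, 19 of the 28 stood higher in cKO. Of the 22 that reached 10 nFPKM in WT or cKO, 14 stood higher in cKO without centring and 8 lower. Hk1, Ldhb and Eno3 changed side with the centring.

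For uptake and trapping of glucose, every listed transporter stood higher in cKO, while the hexokinases Hk1 and Hk2 differed from each other. Slc2a3, a high-affinity glucose transporter best known from neurons and early embryos, had the largest relative log2 ratio of the pathway genes listed, 1.39. It stood at 36.1 nFPKM in WT and 89.1 nFPKM in cKO. Slc2a4, the insulin-responsive transporter of muscle and fat, stood at 20.7 and 27.3 nFPKM (0.49), and Slc2a8, an intracellular transporter, at 11.6 and 13.5 nFPKM (0.31). Hk1, the hexokinase of most tissues, stood at 248 nFPKM in WT and 239 nFPKM in cKO. Its relative log2 ratio was 0.05, while the ratio before centring lay below 1. Hk2 therefore took 18.3% of the summed nFPKM of the 4 hexokinase genes in WT and 30.7% in cKO, with the sum 1.13 times as high in cKO.

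At the phosphofructokinase and aldolase steps, isozymes again differed from each other. The platelet-type subunit Pfkp stood at 143 nFPKM in WT and 192 nFPKM in cKO (0.53), the muscle-type subunit Pfkm at 135 and 119 nFPKM (-0.08), with Pfkl between them. Pfkp took 31.2% of the summed nFPKM of the 3 subunits in WT and 38.1% in cKO, whereas the share of Pfkl was 39.2% and 38.4%. Pfkfb3, whose enzyme makes the activator of phosphofructokinase and is a known HIF target, stood at 19.5 nFPKM in WT and 34.4 nFPKM in cKO (0.89). Its relative Pfkfb2, a form of heart, stood at 16.5 and 14.2 nFPKM (-0.10). The phosphatase gene Tigar, listed as 9630033F20Rik, which opposes that activator, stood at 14.4 and 12.3 nFPKM (-0.11). Aldoc, an aldolase known from brain, stood at 9.57 nFPKM in WT and 19.4 nFPKM in cKO (1.06), yet Aldoa held 99.5% of the summed aldolase nFPKM in WT and 99.2% in cKO.

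Of the listed genes from Gapdh to pyruvate kinase, Gapdh, Bpgm and Eno2, an enolase under 10 nFPKM in both genotypes, were at least 1.5-fold higher in cKO. Gapdh and Bpgm were so only with centring, since their ratios without it were 1.44 and 1.495. Gapdh stood at 86.3 nFPKM in WT and 124 nFPKM in cKO (0.63). Like Pgk1 it lay far below Tpi1 and Aldoa in level, and it also has many pseudogenes that can take up reads. Bpgm, whose enzyme makes bisphosphoglycerate in red blood cells, stood at 86.2 nFPKM in WT and 129 nFPKM in cKO (0.68). The muscle mutase Pgam2 was lower in cKO, at 560 and 482 nFPKM (-0.11), and the common mutase Pgam1 stood at 38.5 and 40.9 nFPKM (0.19). The muscle enolase Eno3 stood at 274 nFPKM in WT and 268 nFPKM in cKO (0.07), so that the share of Eno1 among the 3 enolases was 41.2% and 44.9%. Pkm, the pyruvate kinase gene whose splice forms are not separated in the table, stood at 803 nFPKM in WT and 951 nFPKM in cKO (0.35).

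Among genes of lactate production and export, Ldha and Slc16a3 stood higher and Ldhb near the middle transcript. Ldhb, the subunit that favours oxidation of lactate and is typical of heart, stood at 258 nFPKM in WT and 247 nFPKM in cKO (0.05). Ldha took 81.9% of the summed nFPKM of both subunits in WT and 85.3% in cKO. Slc16a3, a lactate exporter of glycolytic cells, stood at 163 and 227 nFPKM (0.58), and Slc16a1, a monocarboxylate carrier of most tissues, at 119 and 131 nFPKM (0.25). Among the pyruvate dehydrogenase kinases, Pdk3 stood at 181 and 212 nFPKM (0.33), Pdk4 at 28.7 and 31.7 nFPKM (0.25) and Pdk2 at 51.8 and 43.8 nFPKM (-0.13). Pdk1 took 34.0% of the summed nFPKM of the 4 kinases in WT and 34.3% in cKO.

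**Figure D2:**
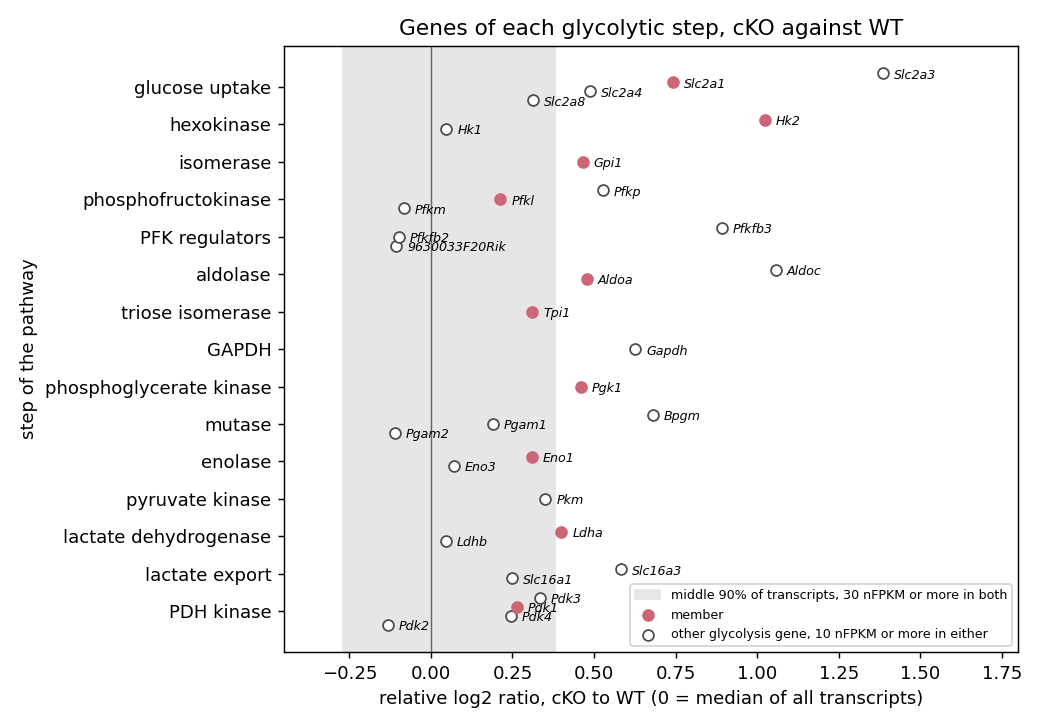
Relative log2 ratio of cKO to WT (0 is the median of all transcripts) for the 10 genes (filled) and for other glycolysis genes that reached 10 nFPKM in WT or cKO (open), by step from glucose uptake to pyruvate dehydrogenase (PDH) kinase. The grey band is the middle 90% of transcripts at 30 nFPKM or more in WT and in cKO (-0.27 to 0.38). Genes above it include Hk2 at 1.02 and Slc2a3 at 1.39. Some open points are of genes below 30 nFPKM, for which the band is too narrow. At the phosphofructokinase step, Pfkm lies at -0.08 and Pfkp at 0.53.

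**Figure D3:**
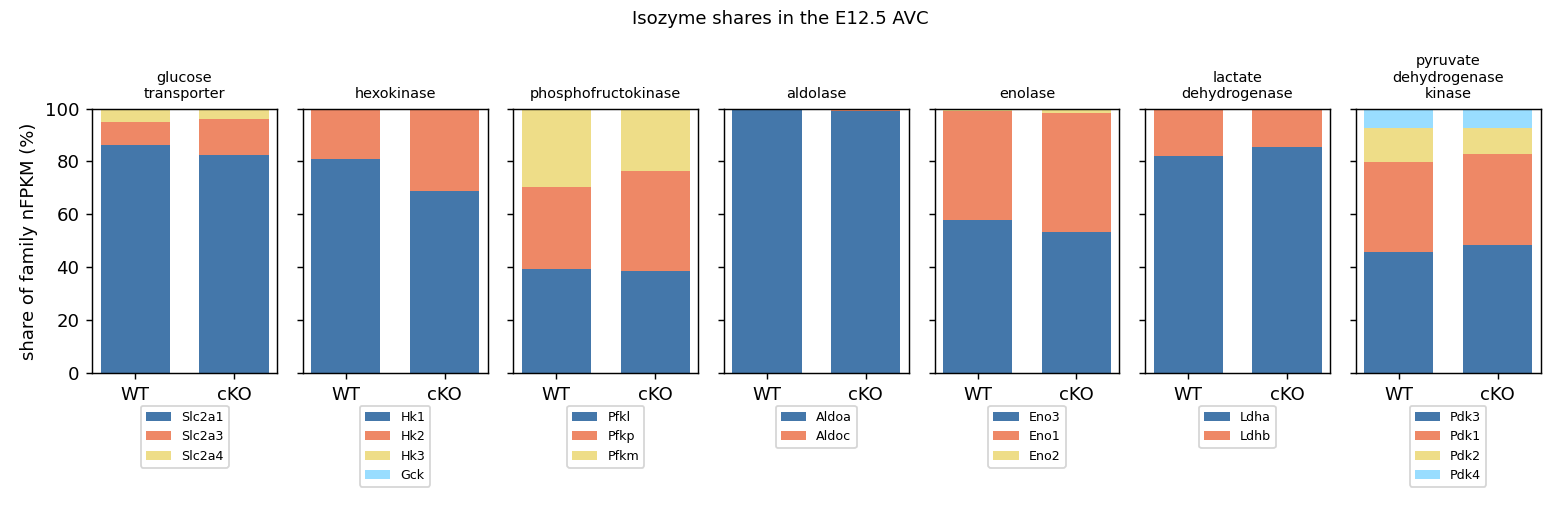
Share of each isozyme in the summed nFPKM of its family (%), in WT and cKO, with 1 merged value per genotype. The largest difference of a member is that of Hk2, at 18.3% in WT and 30.7% in cKO, while Aldoa holds 99.5% and 99.2% of the aldolases.

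By their medians, the pathways that branch from glycolysis lay closer to the middle transcript than the 10 genes, though most of their genes lay above it. All 9 listed genes of pyruvate entry into the mitochondrion passed the filter, with a median relative log2 ratio of 0.10. Of them, 7 lay above the all-transcript median, and none was past 1.5-fold in either direction. Pdp1, a phosphatase that reactivates pyruvate dehydrogenase, stood at 14.1 and 10.1 nFPKM in WT and cKO (-0.33). Its relative Pdp2 stood at 9.15 and 10.4 nFPKM (0.27), and Mpc1, a subunit of the pyruvate carrier, at 2.34 and 3.33 nFPKM (0.48). The 16 genes of the tricarboxylic acid (TCA) cycle had a median of 0.17, with 12 above the all-transcript median and none past 1.5-fold. Their summed nFPKM, without centring, was 5166 in both genotypes. The sum of the 10 glycolysis genes was 1.26 times as high in cKO, and that of the 28 other glycolysis genes 1.105 times. Cs, the citrate synthase that opens the cycle, had the largest relative log2 ratio (0.32), at 503 nFPKM in WT and 584 nFPKM in cKO, ahead of Idh3b (0.20) and Ogdh (0.20).

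The 7 genes of the pentose phosphate pathway had a median of 0.00, with 4 above the all-transcript median. Taldo1, a transaldolase, stood at 0.28, G6pdx, the dehydrogenase that opens the pathway, at 0.10 and Tkt, a transketolase, at 0.08. The 8 genes of glycogen metabolism had a median of 0.25 and none past 1.5-fold. Above the all-transcript median lay 7 of these 8, against 22 of the 28 other glycolysis genes. The summed nFPKM of the 8 genes was 1.13 times as high in cKO, above the 1.105 of the other glycolysis genes. The glycogen primer Gyg stood at 1060 nFPKM in WT and 1309 nFPKM in cKO (0.41), and the liver phosphorylase Pygl had a relative log2 ratio of 0.33. Of 7 genes of gluconeogenesis, 3 were in the table: G6pc3 (0.46), Pcx (0.21) and Pck2 (-0.20).

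**Figure D4:**
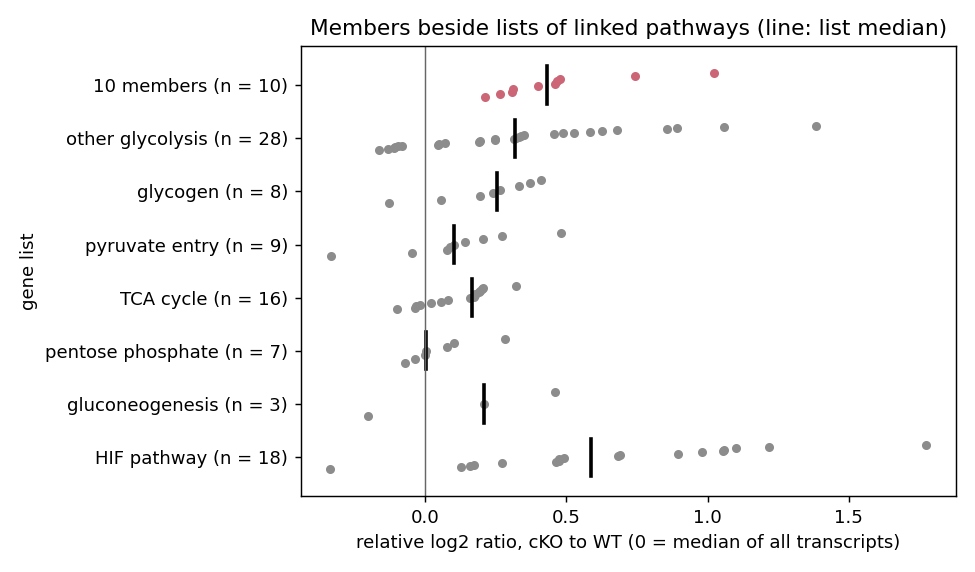
Relative log2 ratio of cKO to WT for each gene (points) and the median of each list (black line), for genes that reached 1 nFPKM in WT or cKO. The medians are 0.43 for the 10 genes, 0.32 for other glycolysis genes, 0.00 to 0.25 for the linked metabolic pathways and 0.59 for the HIF pathway.

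Genes of the HIF pathway outside glycolysis had a higher median relative log2 ratio than the 10 genes, 0.59 against 0.43. Their ratios also spread more widely, from -0.34 to 1.77, against 0.21 to 1.02. Of 18 listed genes, 17 were above the all-transcript median. A 1.5-fold higher value was reached by 9 and a 2-fold higher value by 5, against 3.44% and 0.834% of all transcripts. The named targets with the largest ratios were Ndrg1 (1.77), Ankrd37 (1.22) and Adm (1.10). They stood at 12.5, 6.48 and 12.4 nFPKM in WT, below each of the 10 genes, and low transcripts vary more in their ratio. Hif1a, also above that level, encodes an oxygen-regulated subunit of HIF and stood at 262 nFPKM in WT and 272 nFPKM in cKO (0.16). Epas1, which encodes another such subunit, stood at 21.2 and 32.1 nFPKM (0.68). Vhl, which had the lowest ratio of the list, stood at 39.8 and 29.0 nFPKM (-0.34). The genes from Vegfa to Vhl are named after their values were seen, and their protein levels were not measured.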

How the data were processed

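RNA-seq values came from 1 table covering WT and Sox9 cKO AVC, grouped by the genotype labels. Its values are FPKM that the authors normalized again (nFPKM), with duplicate libraries merged, per the file headers. TopHat2, Cufflinks, edgeR and mm9 are named without roles in the submitters' processing notes. How nFPKM was made from FPKM is not stated in the sources used here. A log2 fold change deposited by the authors, without a p-value, stands beside the values. Depth is unknown, so no counting interval was given.

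The log2 of (cKO + 1) over (WT + 1) was taken, and this pseudocount of 1 makes ratios of low genes too small. Transcripts that reached 1 nFPKM in WT or cKO were kept (13793 of 14697, 904 removed), and ratios were centred on their median. Differences were described by rules of size (2-fold and 1.5-fold), with no test. The genes and lists were chosen with earlier results of these data known. Named were the 10 genes, other glycolysis genes that reached 10 nFPKM in WT or cKO, and from each further list the 3 with the largest absolute relative ratio among genes that reached 3 nFPKM. An item that this rule names is not reported here. Motif letters were searched in RefSeq promoters. Alternatives covered the pseudocount, filter, centring, globins and the authors' fold change. The ratio step was tested on simulated data. Python 3.11.15, numpy 2.4.6, pandas 2.3.3 and matplotlib 3.10.9 were used. Peak lists were not used.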

Additional observations from a re-analysis of the deposited data

How the results depend on the processing

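Each of the 10 ratios kept its direction and its side of the 1.5-fold rule in all 80 recomputed values, under pseudocounts of 0.1 and 5, no centring, centring on transcripts with at least 30 nFPKM, rescaling without globins, the authors' fold change, no filter and a filter at 3 nFPKM. All 8 settings reuse the same merged value per genotype, so they say nothing of variation between libraries or pools. The 10 genes stood at 56.0 nFPKM or more, so the filters and pseudocounts could change their ratios only a little. The median ran from 0.32 to 0.44. It was 0.32 without centring, which lowers every ratio by 0.11, and 0.39 without the 4 genes that have named copies, an alternative chosen after seeing the data. The count of genes at least 2-fold higher, 1 (Hk2), was 0 with a pseudocount of 5 and 0 without centring. The median of pyruvate entry genes was -0.0030 without centring, against 0.10 with it. Over all transcripts, 115 were at least 2-fold higher and 93 lower. These counts were 235 and 261 with a pseudocount of 0.1 and 45 and 36 with a pseudocount of 5. At 1.5-fold, 475 were higher and 389 lower, against 316 and 623 without centring, 680 lower with a pseudocount of 0.1, and 181 and 134 with a pseudocount of 5. With the authors' fold change, 165 were at least 2-fold lower. No paired analysis was possible because the table gives 1 merged value per genotype, and no replicate could be left out for the same reason.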
